A study of Mus musculus with 12 samples.

Results

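GFP-negative mammary myoepithelial cells were compared with GFP-positive brown adipocytes in 8 of the 12 libraries of a mouse study that traced cells with Myf5-Cre or Ucp1-iCre. The 4 myoepithelial libraries were sorted on day 10 of lactation from the mammary gland as lineage-negative, CD24-positive, CD29-high cells without GFP: 2 came from Myf5-Cre mice and 2 from Ucp1-iCre mice. The 4 brown adipocyte libraries were GFP-positive cells of 8-week-old virgin females, again 2 from each line. Both lines were on C57BL/6 and carried the ROSAmTmG reporter, which switches a membrane tag to GFP in any cell in which the recombinase has acted and in its descendants. Myf5-Cre acts in precursors of skeletal muscle and of much of the brown fat, and Ucp1-iCre in cells that have switched on the brown fat gene Ucp1, so the myoepithelial cells described here have no history of the recombinase of their own line as far as the reporter shows it. Tissue, physiological state, age and GFP label all change together between the 2 groups, as the counting of the deposited files appears to do. These cannot be told apart. The libraries were chosen by these labels alone. Per-library values are given below with the myoepithelial libraries first, in the order Myf5-Cre libraries 1 and 2, then Ucp1-iCre libraries 1 and 2, and with the brown adipocyte libraries in the same order of lines.

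Myoepithelial cells form the outer, basal layer of the mammary epithelium. They rest on a basement membrane, hold basal keratins like other stratified epithelia, and hold smooth muscle actin and myosin with which they squeeze milk out of the alveoli when oxytocin binds its receptor. Brown adipocytes burn fat to make heat: noradrenaline raises cyclic AMP through beta-3 adrenergic receptors, lipid droplets are broken down, and UCP1 lets protons leak across the inner mitochondrial membrane. Per its title the study concerns brown adipocytes with a basal myoepithelial phenotype, and the comparison here asks how far ordinary, GFP-negative cells of that layer differ from brown fat.

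The myoepithelial libraries held 20914305 to 31005011 counts and the brown adipocyte libraries 11027738 to 15816710. Genes of the mitochondrial chromosome took 0.987% to 1.28% of the counts in myoepithelial libraries and 12.6% to 36% in brown adipocyte libraries. Those genes, small RNA genes and genes whose transcripts share much sequence with other genes were left out, so levels are CPM, the counts of each remaining gene scaled to a common library size with TMM factors. The 2 libraries of a line correlated on log2 CPM at r = 0.889 (Myf5-Cre) and 0.986 (Ucp1-iCre) in myoepithelial cells. In brown adipocytes they did so at r = 0.936 (Myf5-Cre) and 0.919 (Ucp1-iCre). With pairs across the lines included, the ranges were r = 0.867 to 0.986 in the myoepithelial group and r = 0.725 to 0.936 in brown adipocytes. Between the groups they were r = 0.409 to 0.672, where the highest values belonged to the Ucp1-iCre brown adipocyte libraries. Endothelial marker genes summed to 7068, 7024, 7223 and 7039 CPM in the myoepithelial libraries, against 22.8, 586, 5223 and 2835 CPM in the brown adipocyte libraries. Myoepithelial libraries thus had an even level of endothelial markers, while the brown adipocyte libraries differed from nearly none to most of that level. The files of the 2 tissues also appear to differ in counting, which cannot be told apart from the tissues themselves. Among protein-coding genes, the median log2 difference (myoepithelial over brown adipocyte, as everywhere below) was 0.43 for genes with no exon under a gene of the opposite strand. It was -2.94 for those with more than 50% of their exons so covered. For named genes with over 10% of such overlap that share is given, since reads of the 2 strands may not be told apart there.

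Of 13931 genes tested, 2251 were higher (16.2%) and 2775 lower (19.9%) in myoepithelial cells than in brown adipocytes by the edgeR quasi-likelihood test at an adjusted p of 0.05. Of these, 1155 (8.29%) were higher and 1324 (9.5%) lower by at least 3 on the log2 scale. All 4 myoepithelial libraries lay above all 4 brown adipocyte libraries for 2451 genes (17.6%) and below them for 2848 (20.4%). The median log2 over all tested genes was 0.18. These shares are the background for each gene list below. Whether each library is a separate animal is not stated in the labels, and the p-values cover the spread between these samples only. In bulk samples, fewer cells of a type and less RNA per cell cannot be told apart.

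Of the 2 genes whose regulatory sequences drive the recombinases, Ucp1 separated the groups and Myf5 held almost no counts in either. Ucp1 (mm10 chromosome 8, 83290352 to 83298452), the uncoupling protein of brown fat, had 3.13, 0.55, 0.561 and 0.559 CPM in myoepithelial libraries and 13733, 18459.5, 1128 and 3787 CPM in brown adipocyte libraries. Every brown adipocyte library lay above every myoepithelial one, and Ucp1 was lower in myoepithelial cells by edgeR (log2 -12.60 ± 1.04 SE, adjusted p 0.000132). Myf5, the myogenic factor of early muscle precursors, held 2 counts in 1 myoepithelial library and none in the others, and none in any brown adipocyte library, where 3 counts in the pooled libraries would have been 0.0845 CPM. The 2 surface proteins of the sort gate were measured too. Cd24a, whose product is CD24, had 90.4, 70.7, 127 and 98 CPM in myoepithelial libraries and 0, 0.617, 13.3 and 4.77 CPM in brown adipocyte libraries, with no overlap (log2 5.37 ± 1.04 SE, edgeR adjusted p 0.00427). Itgb1, the integrin beta-1 chain known as CD29, had 310.1, 706, 1006 and 849 CPM in myoepithelial and 182, 182, 504 and 411 CPM in brown adipocyte libraries, and these ranges overlapped. Its difference passed the edgeR test (log2 1.25 ± 0.37 SE, adjusted p 0.0294) but did not pass without Myf5-Cre myoepithelial library 2, Ucp1-iCre myoepithelial library 1, either Myf5-Cre brown adipocyte library or Ucp1-iCre brown adipocyte library 2 (edgeR adjusted p 0.0658 to 0.104).

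Contractile genes went with the myoepithelial label. Of 19 contractile genes, 18 passed the filter on low counts, 16 were higher in myoepithelial cells and none lower, with a median log2 of 5.37; the same 16 held no overlap between the groups. Acta2, smooth muscle alpha-actin, had 4156, 5464, 4451 and 5703 CPM in myoepithelial libraries and 2.93, 2.47, 98.9 and 55.9 CPM in brown adipocyte libraries. Myh11, the smooth muscle myosin heavy chain, had 999, 4451, 2370.0 and 1839 CPM in myoepithelial libraries and 2.93, 2.06, 12 and 9.43 CPM in brown adipocyte libraries. Cnn1, calponin of the thin filament, had 1960.4, 2939, 1134 and 1499.9 CPM in myoepithelial libraries and 2.4, 3.09, 0.498 and 4.18 CPM in brown adipocyte libraries. In all 3 genes the lowest myoepithelial library stood above the highest brown adipocyte library, and the highest brown adipocyte level of Acta2 and Myh11 came from the Ucp1-iCre line. The log2 differences were 8.36 ± 1.26 SE for Acta2 (edgeR adjusted p 0.00133), 8.82 ± 0.91 SE for Myh11 (edgeR adjusted p 0.00026) and 9.46 ± 0.81 SE for Cnn1 (edgeR adjusted p 0.000137). Per kilobase of exon, the mean level of Acta2 in myoepithelial libraries was 2429 CPM, against 791 CPM for Cnn1 and 369 CPM for Myh11.

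Actg2, the gamma-actin of visceral smooth muscle, had 342, 517, 327 and 348 CPM in myoepithelial libraries and counts in 1 brown adipocyte library only (0.533, 0, 0 and 0 CPM). Oxtr, the oxytocin receptor through which milk ejection is triggered, had 148, 682, 333 and 344 CPM in myoepithelial libraries and 16.5, 6.07, 4.11 and 9.14 CPM in brown adipocyte libraries. For Oxtr the log2 difference was 5.43 ± 0.65 SE (edgeR adjusted p 0.000479). Myosin light chain kinase, encoded by Mylk and needed to start smooth muscle contraction, differed by a log2 of 5.30 ± 0.91 SE (edgeR adjusted p 0.00247). These 3 genes cover the receptor, the kinase and the filament of contraction, and none overlapped between the groups. Tagln, the actin-bundling transgelin, differed by a log2 of 7.02 ± 0.99 SE (edgeR adjusted p 0.000992), with 67.9% of its exons under a gene of the other strand. The regulatory light chain Myl9 had 865, 1532, 1037 and 1282 CPM in myoepithelial libraries and 0.80, 11, 230.2 and 128 CPM in brown adipocyte libraries, where the Myf5-Cre and Ucp1-iCre libraries stood far apart. Its call (log2 5.15 ± 1.40 SE, edgeR adjusted p 0.0203) did not pass without Myf5-Cre brown adipocyte library 2 or Ucp1-iCre brown adipocyte library 2 (edgeR adjusted p 0.0564 to 0.0817). Cald1, caldesmon, had 554, 1262, 449 and 467 CPM in myoepithelial libraries and 35.9, 29.5, 337 and 147 CPM in brown adipocyte libraries, and its call (log2 2.85 ± 0.93 SE, edgeR adjusted p 0.0408) did not pass without either Myf5-Cre myoepithelial library, either Myf5-Cre brown adipocyte library or Ucp1-iCre brown adipocyte library 2 (edgeR adjusted p 0.053 to 0.144). A pair of genes in the list did not pass the test: the muscle intermediate filament gene Des had 18.3, 15.9, 73.9 and 106 CPM in myoepithelial and 79.2, 88.9, 44.1 and 76.6 CPM in brown adipocyte libraries, and the smoothelin gene Smtn, with 16.3% exon overlap, had 139, 530.5, 342 and 352 CPM in myoepithelial and 1.73, 39.2, 172 and 156 CPM in brown adipocyte libraries. Myocd, myocardin, a coactivator of smooth muscle genes, was under the filter at 0.154, 0.687, 3.27 and 1.86 CPM in myoepithelial libraries and 0, 0, 0.374 and 0 CPM in brown adipocyte libraries.

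**Figure D1:**
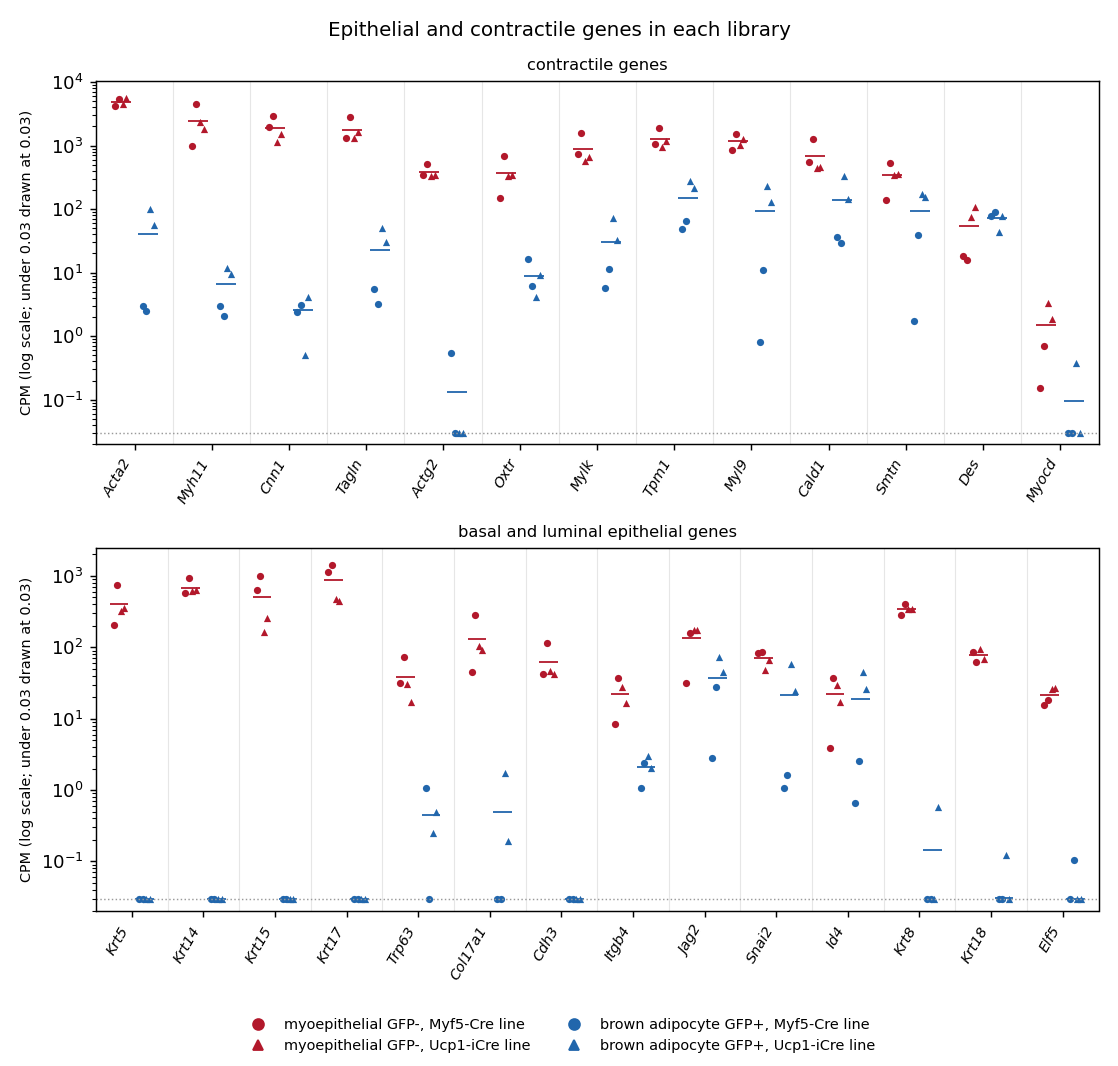
Levels of contractile genes (upper panel) and of basal and luminal epithelial genes (lower panel) in each library, in CPM on a log axis, with myoepithelial libraries in red to the left of brown adipocyte libraries in blue for each gene. Points are libraries, circles for the Myf5-Cre line and triangles for the Ucp1-iCre line, and bars are means of 4 libraries. Krt5, Krt14, Krt15, Krt17 and Cdh3 lie on the dotted line in all 4 brown adipocyte libraries, while Des overlaps between the groups.

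Smooth muscle genes are commonly bound by SRF at a CArG box, with myocardin as its partner. RefSeq gave a promoter window (GRCm38.p6, 250 bases before to 50 after the start) for 15 of the 19 contractile genes. Only the 250 bases before the start were searched, on either strand. The strict letters CCWWWWWWGG, with W for A or T, were found there in 1 gene, Myl9, against 1.624% of 27025 genes with a window. The stretch around this box is shown because it is the only full match among the contractile windows searched. Boxes with a mismatch or outside the 250 bases were not searched. The other contractile promoters are therefore not shown to lack a CArG box. It lies at chr2:156775258-156775357 on the plus strand, with the box in capitals, and overlaps no other motif searched.
Myl9: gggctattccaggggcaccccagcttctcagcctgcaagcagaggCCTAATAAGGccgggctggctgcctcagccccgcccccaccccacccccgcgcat

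Basal epithelial genes followed the same order. Of 20 basal genes, 18 passed the filter, 15 were higher in myoepithelial cells and none lower, with a median log2 of 6.71, and 16 did not overlap. Krt14, the basal keratin that pairs with Krt5, had 569, 940.2, 609 and 637 CPM in myoepithelial libraries and 0 counts in all 4 brown adipocyte libraries. Krt5 had 207, 743, 323 and 350.0 CPM in myoepithelial libraries and 0 counts in brown adipocyte libraries. Krt17, a keratin of basal and stressed epithelia, had 1139, 1434, 469 and 444 CPM in myoepithelial libraries and 0 counts in brown adipocyte libraries. Set against 3 counts in the pooled brown adipocyte libraries, the mean myoepithelial level was at least 8158-fold higher for Krt14, at least 4807-fold higher for Krt5 and at least 10317-fold higher for Krt17. Floors of this kind cover counting error only. Krt14, Krt17 and Krt5 share 25.3%, 15.7% and 12% of their sequence with other genes, so their exact levels are uncertain, whereas Krt15, with 3.0% shared, was at least 6079.6-fold higher.

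Trp63, the p63 factor that maintains basal epithelia, had 31.2, 74.1, 30.4 and 17.4 CPM in myoepithelial libraries and 1.07, 0, 0.249 and 0.486 CPM in brown adipocyte libraries. For Trp63 the log2 difference was 6.34 ± 0.85 SE (edgeR adjusted p 0.000768). Col17a1, a transmembrane collagen of the hemidesmosome, which anchors basal cells, had 45.7, 284, 103 and 91.3 CPM in myoepithelial libraries and 0, 0, 1.74 and 0.195 CPM in brown adipocyte libraries. Itgb4, the integrin beta-4 chain of the same junction, differed by a log2 of 3.42 ± 0.59 SE (edgeR adjusted p 0.00241). P-cadherin, encoded by Cdh3 and typical of myoepithelium, was at 0 in every brown adipocyte library and 41.9, 116, 47 and 42.5 CPM in myoepithelial libraries. Of the 3 tested basal genes that were not called, Id4 had 3.9, 37, 29.5 and 17.1 CPM in myoepithelial and 0.667, 2.57, 45.2 and 26.1 CPM in brown adipocyte libraries, and Snai2, the Slug factor, 84, 85, 47.5 and 65.8 CPM in myoepithelial and 1.07, 1.65, 58.8 and 24.7 CPM in brown adipocyte libraries. In both, the Ucp1-iCre brown adipocyte libraries lay within or near the range of the myoepithelial ones and the Myf5-Cre libraries below it, and Snai2 passed without Ucp1-iCre myoepithelial library 1 or Ucp1-iCre brown adipocyte library 1 (edgeR adjusted p 0.0309 to 0.0376). Of 14 desmosome and junction genes, 11 passed the filter and 8 were higher, none lower, with a median log2 of 4.87; Pkp3, a desmosomal plakophilin, stood at 33, 102, 51 and 50.6 CPM in myoepithelial libraries and 1.47, 0.823, 0.748 and 0.389 CPM in brown adipocyte libraries (log2 6.17 ± 0.53 SE, edgeR adjusted p 0.000138). The basement membrane itself differed by less. Of its 16 genes, 14 were higher and none lower, with a median log2 of 1.86, and 7 did not overlap. The laminin gamma-1 gene Lamc1 had 109.8, 277, 289.8 and 236 CPM in myoepithelial libraries and 54.4, 56.7, 63.8 and 51.5 CPM in brown adipocyte libraries (log2 1.99 ± 0.36 SE, edgeR adjusted p 0.00317), and Lama1 had 11.3, 74.4, 37.5 and 30.6 CPM in myoepithelial libraries and 0 counts in brown adipocyte libraries. The count of 14 fell to 8 without Myf5-Cre brown adipocyte library 1, to 9 without Ucp1-iCre myoepithelial library 2 and to 8 without Ucp1-iCre brown adipocyte library 2.

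The sorted cells also held luminal and milk transcripts. Of 18 luminal and general epithelial genes, 17 passed the filter and 15 were higher, none lower, with a median log2 of 8.72, or 8.29 with the genes at 0 in brown fat placed at their lower bound. Krt8, a luminal keratin, had 286, 409, 342 and 348 CPM in myoepithelial libraries and 0, 0, 0 and 0.584 CPM in brown adipocyte libraries, with 31.6% of its sequence shared. Its partner Krt18 had 85.8, 63, 93.2 and 69.6 CPM in myoepithelial libraries and 0, 0, 0.125 and 0 CPM in brown adipocyte libraries. For Krt18 the log2 difference was 11.12 ± 0.68 SE (edgeR adjusted p 7.59e-05). Elf5, the factor of milk-secreting alveolar cells, had 15.5, 18.3, 25.9 and 27.2 CPM in myoepithelial libraries and 0, 0.103, 0 and 0 CPM in brown adipocyte libraries. Luminal keratins are not part of the textbook myoepithelial profile, and the part of luminal cells in these levels was not tested. Per kilobase of exon, the mean level in myoepithelial libraries was 406 CPM for Krt14, against 177 CPM for Krt8.

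All 14 milk genes were higher in myoepithelial libraries, with a median log2 of 12.02 when the 8 genes at 0 in brown fat are placed at their lower bound and a fitted median of 15.56, and 13 did not overlap. Csn2, beta-casein, had 54229, 24384, 47304 and 48150.5 CPM in myoepithelial libraries and 0 counts in brown adipocyte libraries, at least 515288-fold higher. Csn1s1, alpha-S1-casein, had 15138, 10908, 10008 and 10891 CPM in myoepithelial libraries and 0 counts in brown adipocyte libraries, at least 138967-fold higher. Wap, the whey acidic protein gene, had 14605, 10759.5, 15746 and 19859 CPM in myoepithelial libraries and counts in 1 brown adipocyte library (0.133, 0, 0 and 0 CPM). The milk genes together took 7.92% to 13.6% of all counts in myoepithelial libraries and 0.0152% to 0.102% in brown adipocyte libraries. Lalba, alpha-lactalbumin of lactose synthesis, did reach all but 1 of the brown adipocyte libraries, at 0, 0.206, 2.12 and 0.875 CPM, against 1146, 499.6, 656 and 704 CPM in myoepithelial libraries. Glycam1, a mucin-like whey protein, had 230.1, 247, 860.4 and 1278 CPM in myoepithelial libraries and 0 counts in brown adipocyte libraries. Mfge8, a milk fat globule protein made by many cells, had 2649, 1469.7, 2220.0 and 1912 CPM in myoepithelial libraries and 152, 205, 611 and 851 CPM in brown adipocyte libraries. For Mfge8 the log2 difference was 2.51 ± 0.56 SE (edgeR adjusted p 0.00811).

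In lactation, prolactin activates STAT5, which binds interferon-gamma activated sites (GAS). The letters TTCNNNGAA, which read the same on both strands, were searched in the 250 bases before the start. Of the 10 milk genes with a RefSeq promoter window, 3 held them, against 8.13% of 27025 genes. The 3 stretches are printed because these genes stood at 0 counts in every brown adipocyte library, with the motif in capitals; none overlaps the other motifs searched. Csn1s1 is at chr5:87666063-87666161 on the plus strand, Csn2 at chr5:87699465-87699563 on the minus strand and Glycam1 at chr15:103565173-103565271 on the minus strand (RefSeq, GRCm38.p6), all written from 5′ to 3′ of the gene.
Csn1s1: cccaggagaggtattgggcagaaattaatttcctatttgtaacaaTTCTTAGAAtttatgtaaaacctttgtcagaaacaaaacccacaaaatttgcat
Csn2: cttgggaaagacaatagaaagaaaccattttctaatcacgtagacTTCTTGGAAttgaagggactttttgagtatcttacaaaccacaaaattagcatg
Glycam1: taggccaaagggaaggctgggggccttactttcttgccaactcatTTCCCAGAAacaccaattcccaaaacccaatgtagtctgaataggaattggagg
The middle letters differ between the 3 genes, and a match of letters is not a measure of binding.

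Brown fat's heat-making genes ran the opposite way. Of 23 thermogenic genes kept, 22 passed the filter, 18 were lower in myoepithelial cells and none higher, with a median log2 of -5.29, and 20 did not overlap. Elovl3, a fatty acid elongase of active brown fat, had 0 counts in 3 of the 4 myoepithelial libraries and 0.0932 CPM in the fourth, against 1811, 2699, 504 and 1608 CPM in brown adipocyte libraries. Cox8b, a heart and brown fat subunit of cytochrome oxidase, had 0.0513, 0.87, 0.592 and 0.373 CPM in myoepithelial libraries and 1459.8, 1324, 484 and 584 CPM in brown adipocyte libraries. Cox7a1, another such subunit, had 0.154, 0.87, 0.374 and 0.435 CPM in myoepithelial libraries and 806, 858, 252 and 328 CPM in brown adipocyte libraries. All 3 genes were near the floor of myoepithelial libraries, and both Myf5-Cre brown adipocyte libraries stood above both Ucp1-iCre ones. The log2 differences were -10.79 ± 0.92 SE for Cox8b (edgeR adjusted p 0.000137) and -10.04 ± 0.70 SE for Cox7a1 (edgeR adjusted p 9.14e-05). Bmp8b, a secreted factor that raises brown fat's response to noradrenaline, was at 0 counts in all myoepithelial libraries and 78.5, 109, 24.3 and 72.5 CPM in brown adipocyte libraries, at least 2503-fold lower in myoepithelial cells; 12.2% of its exons overlap the other strand.

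A receptor and some regulators of the thermogenic list were lower too, and others did not pass. Adrb3, the beta-3 adrenergic receptor, had 0, 0.824, 0.904 and 1.03 CPM in myoepithelial libraries and 777, 729.8, 38.5 and 166 CPM in brown adipocyte libraries (log2 -8.66 ± 1.41 SE, edgeR adjusted p 0.00188), with 24.9% exon overlap. Ppargc1a, the coactivator PGC-1alpha of mitochondrial biogenesis, had 0.974, 0.962, 0.312 and 0.746 CPM in myoepithelial libraries and 76.1, 124, 11.8 and 46.7 CPM in brown adipocyte libraries (log2 -6.23 ± 0.61 SE, edgeR adjusted p 0.000214). Lhx8, a LIM homeobox marker of brown fat, was lower at a low level, with 0, 0, 0.53 and 0.342 CPM in myoepithelial libraries and 10.1, 3.5, 5.11 and 7.29 CPM in brown adipocyte libraries. For Lhx8 the log2 difference was -5.48 ± 1.18 SE (edgeR adjusted p 0.00717). Other brown fat genes differed by less or were not called. Cidea, a lipid droplet protein that is a standard brown fat marker and is also known from lactating mammary epithelium, had 694, 402, 453 and 367 CPM in myoepithelial libraries and 4088, 4607, 968 and 3023 CPM in brown adipocyte libraries, lower but far from absent (log2 -2.63 ± 0.51 SE, edgeR adjusted p 0.00416). Prdm16, a factor that fixes the brown fat fate over muscle, had 27.8, 17.3, 28.1 and 38.8 CPM in myoepithelial libraries and 16.4, 24.3, 34.1 and 27.7 CPM in brown adipocyte libraries. Its difference was 0.13 on the log2 scale with a 95% interval of -0.56 to 0.82 (edgeR adjusted p 0.758). Ckb, the creatine kinase of brown fat's futile creatine cycle, had 434, 551, 398 and 535 CPM in myoepithelial libraries and 338, 842, 306 and 575 CPM in brown adipocyte libraries, with an interval of -1.02 to 0.84 around -0.09 and 20.2% shared sequence. Ebf2, an early brown precursor factor, had 13.4, 6.05, 25.3 and 16.3 CPM in myoepithelial libraries and 44.4, 59, 18.7 and 36.1 CPM in brown adipocyte libraries and did not pass (edgeR adjusted p 0.0705), nor did the nuclear receptor Esrra at 2.87, 14.5, 17.5 and 18.3 CPM in myoepithelial and 175, 228, 21.1 and 29.8 CPM in brown adipocyte libraries (edgeR adjusted p 0.0774). Ebf2 passed without Ucp1-iCre myoepithelial library 1 or Ucp1-iCre brown adipocyte library 1 (edgeR adjusted p 0.0234 to 0.0464), and Esrra passed without Ucp1-iCre brown adipocyte library 1 (edgeR adjusted p 0.0371).

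Dio2, the deiodinase that makes active thyroid hormone within brown fat and is switched on by cyclic AMP, had 0, 0.0916, 1.03 and 0.932 CPM in myoepithelial libraries and 24.1, 49.1, 1.99 and 6.91 CPM in brown adipocyte libraries. The Ucp1-iCre libraries of the 2 cell types were nearer to each other than those of the Myf5-Cre line, and the groups did not overlap. Its call (log2 -5.08 ± 1.62 SE, edgeR adjusted p 0.0377) did not pass without either Myf5-Cre myoepithelial library, Myf5-Cre brown adipocyte library 2 or Ucp1-iCre brown adipocyte library 2 (edgeR adjusted p 0.06 to 0.122). The full cyclic AMP response element TGACGTCA was searched on either strand in the 250 bases before the start. Among the 17 thermogenic genes with a RefSeq promoter window, Dio2 alone held it, against 1.769% of 27025 genes. It is shown with the element in capitals, from chr12:90739081-90739178 on the minus strand.
Dio2: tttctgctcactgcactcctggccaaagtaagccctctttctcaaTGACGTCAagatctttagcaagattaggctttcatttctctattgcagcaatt

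**Figure D2:**
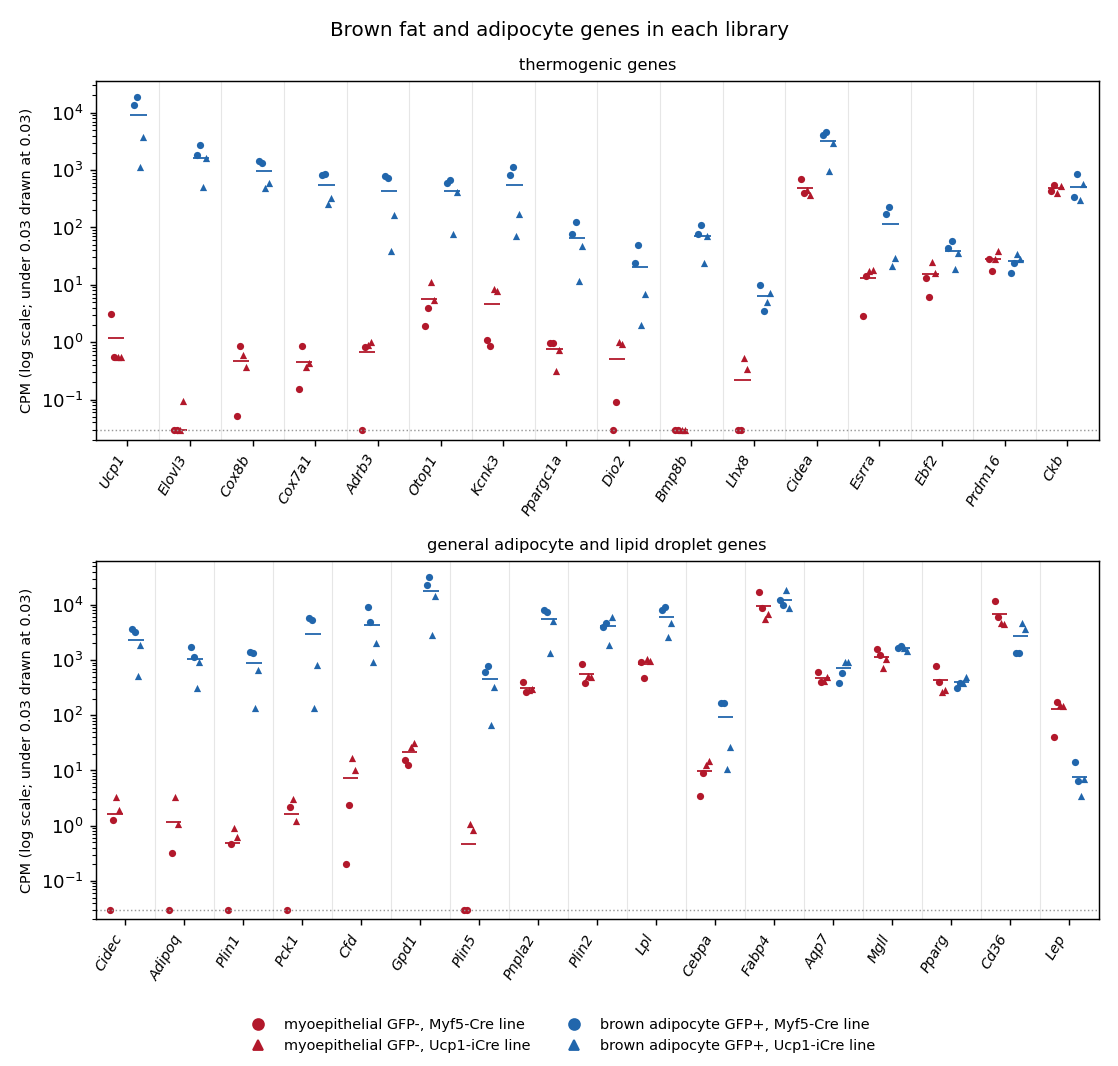
Levels of thermogenic genes (upper panel) and of general adipocyte and lipid droplet genes (lower panel) in each library, in CPM on a log axis, with myoepithelial libraries in red to the left of brown adipocyte libraries in blue. Points are libraries (circles for the Myf5-Cre line, triangles for the Ucp1-iCre line) and bars are means of 4 libraries. Ucp1, Elovl3 and Adipoq separate by orders of magnitude, Prdm16, Ckb, Fabp4 and Pparg overlap, and Lep is higher in myoepithelial libraries.

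Genes of adipocytes in general split into a group that was nearly absent from myoepithelial libraries and a group that was not. Of 22 such genes, all passed the filter, 15 were lower, 1 was higher and 6 were not called, with a median log2 of -3.56. Adipoq, the hormone adiponectin, had 0, 0.321, 3.24 and 1.06 CPM in myoepithelial libraries and 1718, 1152, 315 and 939 CPM in brown adipocyte libraries. For Adipoq the log2 difference was -10.31 ± 1.53 SE (edgeR adjusted p 0.00123). Plin1, perilipin-1, the coat of adipocyte lipid droplets, had 0, 0.458, 0.904 and 0.622 CPM in myoepithelial libraries and 1379, 1350.4, 134 and 663 CPM in brown adipocyte libraries (log2 -10.60 ± 1.35 SE, edgeR adjusted p 0.000626). Cidec, which fuses droplets, had 0, 1.28, 3.37 and 1.93 CPM in myoepithelial libraries and 3668, 3286, 511 and 1896 CPM in brown adipocyte libraries. For Cidec the log2 difference was -10.53 ± 1.54 SE (edgeR adjusted p 0.00114). None of these overlapped, and Ucp1-iCre brown adipocyte library 1 was the lowest brown adipocyte library in each. The enzymes of triglyceride assembly were lower as well: Gpd1, which makes the glycerol backbone, had 15.2, 12.8, 26.6 and 31.1 CPM in myoepithelial libraries and 23231, 31655, 2874 and 14238 CPM in brown adipocyte libraries, with 13% exon overlap, and Agpat2 and Dgat2, which add fatty acids to it, differed by a log2 of -8.01 ± 0.69 SE (edgeR adjusted p 0.000139) and -8.37 ± 0.73 SE (edgeR adjusted p 0.000141). Pnpla2, the lipase that opens triglyceride breakdown, kept 406, 265, 292 and 300.0 CPM in myoepithelial libraries, against 8119, 7323, 1348 and 5009 CPM in brown adipocyte libraries (log2 -3.97 ± 0.60 SE, edgeR adjusted p 0.0013), and Lpl, lipoprotein lipase, 926, 468, 1056 and 971 CPM in myoepithelial libraries, against 8054, 9032, 2657 and 4659 CPM in brown adipocyte libraries. For Lpl the log2 difference was -2.73 ± 0.58 SE (edgeR adjusted p 0.00645).

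Pparg, the master factor of fat cell formation, had 792, 406, 263 and 286 CPM in myoepithelial libraries and 318, 377, 378 and 499 CPM in brown adipocyte libraries, a log2 difference of 0.05 with a 95% interval of -0.92 to 1.03 (edgeR adjusted p 0.932). Fabp4, the fatty acid binding protein of fat cells, which capillary endothelium also makes, had 16873, 8847, 5578 and 6789.9 CPM in myoepithelial libraries and 12370.2, 9994, 18464 and 8871 CPM in brown adipocyte libraries (log2 -0.47, interval -1.78 to 0.84, edgeR adjusted p 0.542). Cd36, a fatty acid translocase also made by endothelium, had 11696, 6072, 4705 and 4513 CPM in myoepithelial libraries and 1370.3, 1365, 4621 and 3673 CPM in brown adipocyte libraries (log2 1.43, interval -0.09 to 2.94, edgeR adjusted p 0.125). These 3 genes and the glycerol channel gene Aqp7, at 616, 399.9, 418 and 485 CPM in myoepithelial and 377, 584, 933 and 936 CPM in brown adipocyte libraries, were not called (Aqp7 log2 -0.49, interval -1.37 to 0.40), and the intervals of Fabp4, Cd36, Pparg and Aqp7 all allow differences of more than 1 on the log2 scale. Within the Myf5-Cre line alone Cd36 was higher in myoepithelial cells (log2 2.70 ± 0.57 SE, edgeR adjusted p 0.0048), but its difference between lines did not pass (edgeR adjusted p 0.0879). The endothelial markers given above were as high in all 4 myoepithelial libraries as in any library, and their part in these 4 levels was not tested. Cebpa, a partner of Pparg in fat cell formation, had 3.49, 8.88, 12.5 and 15 CPM in myoepithelial libraries and 168, 165, 10.7 and 26.9 CPM in brown adipocyte libraries and was not called (edgeR adjusted p 0.0751), though it passed without Ucp1-iCre brown adipocyte library 1 (edgeR adjusted p 0.0195). The 1 adipocyte gene higher in myoepithelial cells was Lep, which encodes leptin and is also known from mammary epithelium: 41.1, 171, 155 and 145 CPM in myoepithelial libraries and 14.3, 6.38, 3.49 and 6.91 CPM in brown adipocyte libraries, with no overlap (log2 4.10 ± 0.62 SE, edgeR adjusted p 0.00139, or 0.0981 with all 12 libraries in the fit).

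Of 12 genes of the lipid droplet surface, 11 passed the filter, 8 were lower and none higher, with a median log2 of -2.91. Plin2, the droplet coat of most cell types and of milk fat globules, had 857, 386, 506 and 495 CPM in myoepithelial libraries and 4033, 4708, 1857 and 6133 CPM in brown adipocyte libraries (log2 -2.91 ± 0.53 SE, edgeR adjusted p 0.0033), with 7.49% shared sequence. Plin5, the coat that ties droplets to mitochondria, had 0, 0, 1.06 and 0.839 CPM in myoepithelial libraries and 599.6, 797, 65.6 and 328 CPM in brown adipocyte libraries. Mgll, which splits the last fatty acid from glycerol, had 1587, 1258, 705 and 1039 CPM in myoepithelial libraries and 1669.7, 1765, 1640.3 and 1445 CPM in brown adipocyte libraries (log2 -0.55, interval -1.37 to 0.28) and was not called, nor was the lipase inhibitor gene Hilpda at 52.7, 21.9, 49.8 and 56.7 CPM in myoepithelial and 42.7, 16, 120.1 and 26.9 CPM in brown adipocyte libraries. Droplet genes thus ranged from near absence to levels at which no difference was called. With genes of over 5% opposite-strand exon overlap left out, an alternative chosen after seeing the data, 4 droplet genes were lower.

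Most genes of fuel metabolism had lower RNA levels in myoepithelial cells. Of 17 fatty acid synthesis genes, 14 were lower and 2 higher, with a median log2 of -4.39. Fasn, fatty acid synthase, had 59.3, 245, 508 and 407 CPM in myoepithelial libraries and 21904, 18262, 1752 and 6616 CPM in brown adipocyte libraries (log2 -5.12 ± 1.15 SE, edgeR adjusted p 0.00848). Scd1, the delta-9 desaturase, had 230.4, 138, 661 and 838 CPM in myoepithelial libraries and 47140.0, 25770.3, 3186 and 11435 CPM in brown adipocyte libraries. For Scd1 the log2 difference was -5.46 ± 1.22 SE (edgeR adjusted p 0.0085). Mlxipl, which encodes the carbohydrate-sensing factor ChREBP, had 2.46, 0.183, 1.09 and 0.746 CPM in myoepithelial libraries and 568, 789, 155 and 498 CPM in brown adipocyte libraries. For Mlxipl the log2 difference was -8.73 ± 0.92 SE (edgeR adjusted p 0.000283). The 2 that were higher, Fads1 and Fads2, are the desaturases of polyunsaturated fatty acids, at a log2 of 1.76 ± 0.49 SE (edgeR adjusted p 0.0223) and 1.81 ± 0.32 SE (edgeR adjusted p 0.00261). With genes of over 5% shared sequence left out, 9 synthesis genes were lower.

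Of 18 fatty acid oxidation genes, 16 were lower and none higher, with a median log2 of -3.86, and of 20 citrate cycle and pyruvate dehydrogenase genes all 20 were lower, without overlap, with log2 values between -4.86 and -2.08 and a median of -3.56. Decr1, a reductase for unsaturated fatty acids, had 31.1, 30.8, 28.8 and 29.2 CPM in myoepithelial libraries and 1041, 1034, 227 and 405 CPM in brown adipocyte libraries (log2 -4.25 ± 0.48 SE, edgeR adjusted p 0.000376). Sdhb, the iron-sulfur subunit of succinate dehydrogenase, had 189, 128, 95.4 and 116 CPM in myoepithelial libraries and 2350.3, 2628, 603 and 1331 CPM in brown adipocyte libraries. For Sdhb the log2 difference was -3.58 ± 0.45 SE (edgeR adjusted p 0.00058). The myoepithelial values were close to one another in both genes, and the spread lay in the brown adipocyte libraries. Acadvl, the first dehydrogenase for long chains, differed by a log2 of -5.98 ± 0.70 SE (edgeR adjusted p 0.000422), but 42.9% of its exons overlap Dvl2 on the other strand, whose log2 was -7.32 and of whose exons 18.3% are covered in turn. Of 14 genes of glycolysis and lactate, 10 were lower and 2 higher, with a median log2 of -1.90. Hexokinase 2, encoded by Hk2, had 14.8, 10.6, 9.64 and 6.28 CPM in myoepithelial libraries and 279, 218, 90.1 and 209 CPM in brown adipocyte libraries. For Hk2 the log2 difference was -4.26 ± 0.40 SE (edgeR adjusted p 0.000171). The aldolase gene Aldoc ran the other way, with 104, 39.4, 55.5 and 92.3 CPM in myoepithelial libraries and 0.667, 1.44, 0.125 and 2.92 CPM in brown adipocyte libraries (log2 5.80 ± 0.79 SE, edgeR adjusted p 0.000859), as did Slc2a1, the glucose transporter GLUT1, by a log2 of 1.63 ± 0.26 SE (edgeR adjusted p 0.00161). With genes of over 5% shared sequence left out, 5 glycolysis genes were lower.

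**Figure D3:**
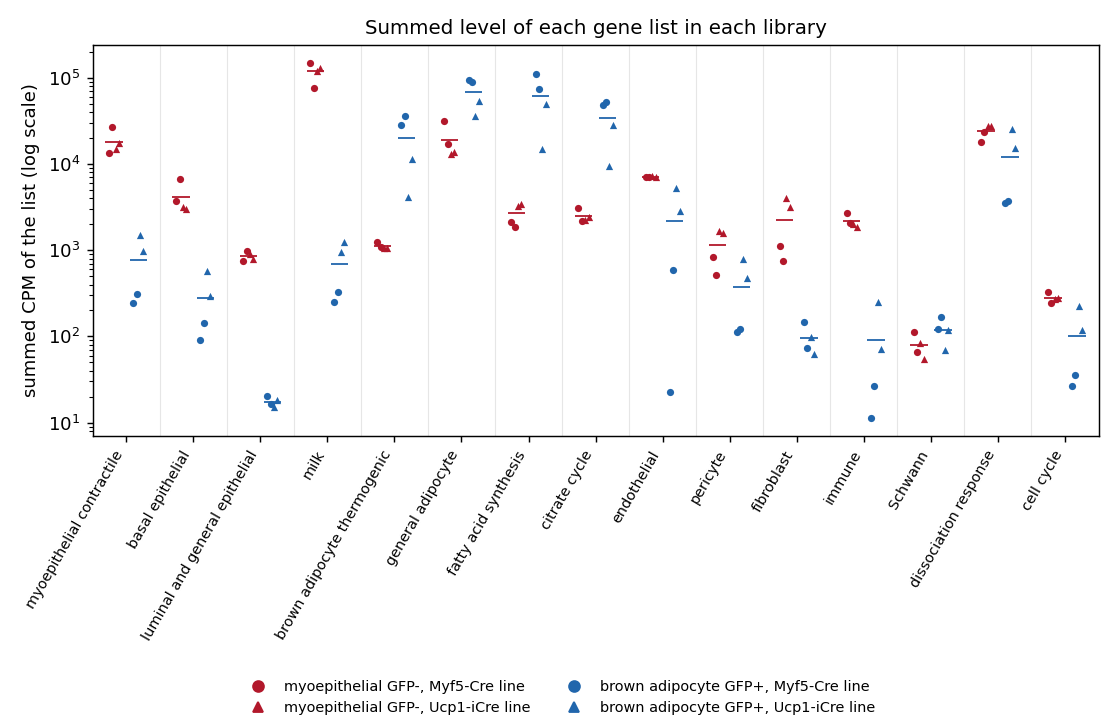
Summed CPM of each gene list in each library on a log axis, with myoepithelial libraries in red to the left of brown adipocyte libraries in blue; points are libraries (circles for the Myf5-Cre line, triangles for the Ucp1-iCre line) and bars are means of 4 libraries. Contractile, basal, luminal and milk lists are higher and thermogenic and citrate cycle lists lower in every myoepithelial library, while the endothelial, pericyte, cell cycle and dissociation lists in the Ucp1-iCre brown adipocyte libraries reach toward the myoepithelial level.

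Among 22 transcription factors known from either cell type, 19 passed the filter, 7 were higher and 1 lower, with a median log2 of 0.89. Sox10, a factor of mammary stem and basal cells and of glia, had 23.5, 164, 71.9 and 84.8 CPM in myoepithelial libraries and 0, 0, 0.872 and 0.584 CPM in brown adipocyte libraries (log2 8.08 ± 1.08 SE, edgeR adjusted p 0.000776). Sox9, of mammary progenitors, had 70.1, 114, 97.8 and 79.6 CPM in myoepithelial libraries and 2.4, 2.98, 1.99 and 0.681 CPM in brown adipocyte libraries. For Sox9 the log2 difference was 5.56 ± 0.47 SE (edgeR adjusted p 0.000137). Tfap2c, AP-2gamma of mammary epithelium, had 49.8, 163, 51.8 and 63.6 CPM in myoepithelial libraries and 0 counts in brown adipocyte libraries, at least 973-fold higher. No brown adipocyte library had more than 1 CPM of Sox10 or Tfap2c, while Sox9 held a low level in each. Ebf1, an early B cell factor active in fat cells, had 336, 122, 112 and 112 CPM in myoepithelial libraries and 103, 122, 166 and 128 CPM in brown adipocyte libraries and was not called (log2 0.32, interval -0.68 to 1.32).

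Of 12 genes of the somite and muscle lineage, from which brown fat also descends, 5 passed the filter. Eya1, a transcriptional cofactor of early muscle precursors, was the 1 gene that was higher, with 7.28, 7.37, 6.67 and 5.72 CPM in myoepithelial libraries and 0, 1.13, 0.623 and 0.292 CPM in brown adipocyte libraries (log2 3.69 ± 0.85 SE, edgeR adjusted p 0.00987, or 0.0765 with all 12 libraries in the fit). All 4 myoepithelial libraries stood above all 4 brown adipocyte libraries, each at a low level. Mef2c, a muscle and endothelial factor, had 429, 204, 139.7 and 129 CPM in myoepithelial libraries and 2.53, 5.04, 126 and 49.5 CPM in brown adipocyte libraries and was not called (edgeR adjusted p 0.0899). It became a called gene without Ucp1-iCre myoepithelial library 1 (edgeR adjusted p 0.0467), without Ucp1-iCre myoepithelial library 2 (0.0404) or without Ucp1-iCre brown adipocyte library 1 (0.0317), and 2 lineage genes were then higher.

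Hox genes record position along the body axis. Of 37 Hox genes kept, 22 passed the filter, 3 were higher and 8 lower in myoepithelial cells. The 3 that were higher are neighbours in the D cluster. Hoxd8 had 165, 235, 147 and 207 CPM in myoepithelial libraries and 8.8, 8.44, 25.9 and 17.4 CPM in brown adipocyte libraries. For Hoxd8 the log2 difference was 3.78 ± 0.43 SE (edgeR adjusted p 0.000388). Hoxd9 had 48.7, 118, 58.8 and 78 CPM in myoepithelial libraries and 0.40, 0.206, 3.24 and 2.63 CPM in brown adipocyte libraries (log2 5.98 ± 0.80 SE, edgeR adjusted p 0.0008). Hoxd10 had 80.8, 35.4, 23.7 and 36.4 CPM in myoepithelial libraries and 0 counts in brown adipocyte libraries, at least 522-fold higher. No other gene of the D cluster passed the filter. The 8 that were lower lay in the A, B and C clusters. Hoxa9 had 0, 0, 0.187 and 0.404 CPM in myoepithelial libraries and 2.13, 2.98, 2.49 and 1.75 CPM in brown adipocyte libraries. For Hoxa9 the log2 difference was -4.46 ± 1.18 SE (edgeR adjusted p 0.0177). Hoxb2 had 3.69, 3.3, 2.4 and 2.83 CPM in myoepithelial libraries and 12, 15.1, 57.9 and 34.6 CPM in brown adipocyte libraries (log2 -3.06 ± 0.54 SE, edgeR adjusted p 0.00287), with 27.3% exon overlap. The count of 8 rests on single libraries: it was 2 without Myf5-Cre myoepithelial library 2, 3 and 5 without Ucp1-iCre myoepithelial libraries 1 and 2, 3 and 2 without Myf5-Cre brown adipocyte libraries 1 and 2, and 3 without Ucp1-iCre brown adipocyte library 2.

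**Figure D4:**
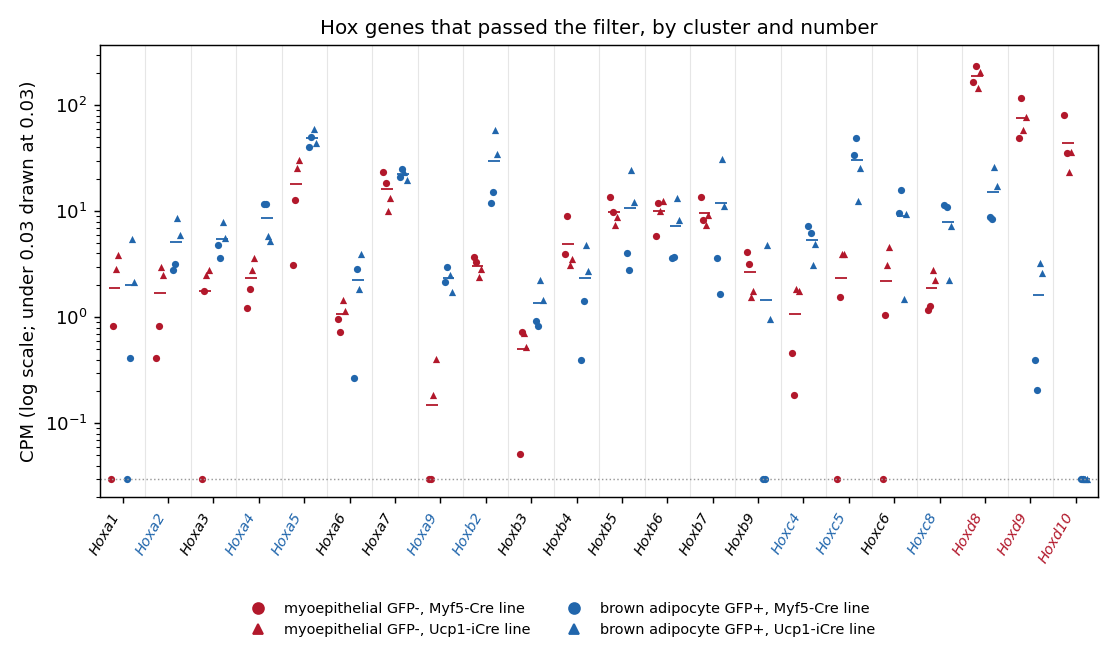
Levels of the 22 Hox genes that passed the filter, ordered by cluster and number, in CPM on a log axis, with myoepithelial libraries in red to the left of brown adipocyte libraries in blue; points are libraries (circles for the Myf5-Cre line, triangles for the Ucp1-iCre line) and bars are means of 4 libraries. Red names were higher and blue names lower in myoepithelial cells; the 3 red ones are Hoxd8, Hoxd9 and Hoxd10.

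Of 17 genes of calcium and noradrenaline signalling, which include receptors, channels, a G protein and phosphodiesterases, 15 passed the filter, 3 were higher and 4 lower, with a median log2 of 0.05. These shares lie near those over all genes tested. Adra1a, an alpha-1 adrenergic receptor, had 0, 0.229, 0.935 and 0.28 CPM in myoepithelial libraries and 76.3, 108, 9.1 and 33.3 CPM in brown adipocyte libraries. For Adra1a the log2 difference was -6.96 ± 1.20 SE (edgeR adjusted p 0.0025). Cacna1c, the L-type calcium channel of smooth muscle and heart, had 6.92, 10.5, 14.7 and 10.1 CPM in myoepithelial libraries and 0.267, 0, 0 and 0.292 CPM in brown adipocyte libraries (log2 6.17 ± 0.90 SE, edgeR adjusted p 0.00115). With genes of over 5% opposite-strand overlap left out, 2 of this list were lower.

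Markers of other cell types were compared too. The endothelial list had 1 called gene of 12, Vwf, the clotting factor carrier of vessel walls, at 55, 138, 77.8 and 58.1 CPM in myoepithelial libraries and 0.267, 0, 5.23 and 1.26 CPM in brown adipocyte libraries (log2 6.21 ± 1.15 SE, edgeR adjusted p 0.00352), and a median log2 of 2.81; 4 were called without Myf5-Cre brown adipocyte library 1 and 4 without Ucp1-iCre brown adipocyte library 1. Pecam1, the junction protein CD31, had 789, 829, 1024 and 959 CPM in myoepithelial libraries and 1.2, 64.3, 467 and 405 CPM in brown adipocyte libraries, and passed without Myf5-Cre brown adipocyte library 1 (edgeR adjusted p 0.0417). A lineage-negative gate usually removes endothelial and blood cells. Pecam1 stood at 789 CPM or more in every myoepithelial library, and which cells made this RNA was not tested. Fibroblast genes were higher in 11 of 13, none lower, with a median log2 of 3.88: Dcn, decorin, had 565, 258, 568 and 422 CPM in myoepithelial libraries and 12.9, 3.6, 14.3 and 7.78 CPM in brown adipocyte libraries (log2 5.56 ± 0.57 SE, edgeR adjusted p 0.000253), and Col3a1, type III collagen, 149, 198, 1731 and 1364 CPM in myoepithelial libraries and 58.4, 39.8, 24.8 and 25.2 CPM in brown adipocyte libraries. The call of Col3a1 (log2 3.88 ± 0.95 SE, edgeR adjusted p 0.0126) did not pass without Ucp1-iCre brown adipocyte library 2 (edgeR adjusted p 0.0564). Pericyte genes were higher in 4 of 8, none lower, at a median log2 of 2.74 and a summed level of 833, 514, 1664 and 1579.8 CPM in myoepithelial libraries and 113, 122, 785 and 475 CPM in brown adipocyte libraries; 2 were called without Ucp1-iCre brown adipocyte library 2. Immune genes were higher in 7 of the 12 tested, none lower, with a median log2 of 3.01, led by Cd74, the invariant chain of antigen presentation, at 1805, 1399.8, 1213 and 1138 CPM in myoepithelial libraries and 1.47, 2.26, 51.1 and 12.3 CPM in brown adipocyte libraries. For Cd74 the log2 difference was 7.40 ± 1.21 SE (edgeR adjusted p 0.00195). Of 6 Schwann cell genes tested 3 were higher and 1, S100b, was lower, at 1.18, 1.24, 1.31 and 1.12 CPM in myoepithelial libraries and 53.7, 91.5, 36.8 and 47.8 CPM in brown adipocyte libraries. For S100b the log2 difference was -5.50 ± 0.38 SE (edgeR adjusted p 9.14e-05). Of 8 skeletal muscle genes 3 were lower and 1 higher, and at most 1 was called lower without either Myf5-Cre myoepithelial library, Ucp1-iCre myoepithelial library 2 or the first brown adipocyte library of either line. The 1 erythroid gene tested was not called.

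Genes of the stress response to tissue dissociation were higher in 5 of 13, none lower, with a median log2 of 1.97. Their summed level was 18118, 23694, 27769.7 and 27742 CPM in myoepithelial libraries and 3514, 3739, 25643 and 15486 CPM in brown adipocyte libraries, so that both Ucp1-iCre brown adipocyte libraries reached near the myoepithelial level and both Myf5-Cre ones did not. The 5 became 3 without Myf5-Cre brown adipocyte library 1, 2 without Myf5-Cre brown adipocyte library 2 and 9 without Ucp1-iCre brown adipocyte library 1. Cell cycle genes were higher in 5 of 13, none lower, with a median log2 of 2.50, and 1 to 3 were called without Myf5-Cre myoepithelial library 2, either Myf5-Cre brown adipocyte library, Ucp1-iCre myoepithelial library 2 or Ucp1-iCre brown adipocyte library 2. The part of other cells and of dissociation in the lists above was not tested.

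At the other end, 1043 of the tested protein-coding genes, predicted genes left out, had a 95% interval of the log2 difference within ±1. Those that were not ribosomal protein genes and had at most 5% shared sequence were ranked by level. Among the most abundant of these, Gadd45g, a growth arrest and stress gene, had 829, 869, 762 and 727 CPM in myoepithelial libraries and 703, 770.3, 967 and 783 CPM in brown adipocyte libraries. Prkar1a, the regulatory subunit of protein kinase A, had 597, 442, 554 and 529.7 CPM in myoepithelial libraries and 466, 506, 498 and 476 CPM in brown adipocyte libraries. Adipor1, an adiponectin receptor, had 244, 382, 347 and 388 CPM in myoepithelial libraries and 334, 343, 397 and 429 CPM in brown adipocyte libraries. In each of these the ranges overlapped, with intervals of -0.74 to 0.72 for Gadd45g, -0.56 to 0.81 for Prkar1a and -0.82 to 0.54 for Adipor1.

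More genes passed the test in the Myf5-Cre line than in the Ucp1-iCre line. With 2 libraries against 2, 6954 genes (49.9%) passed in the Myf5-Cre line, 3853 higher (27.7%) and 3101 lower (22.3%) in myoepithelial cells. In the Ucp1-iCre line 3095 genes (22.2%) passed, 1184 higher (8.5%) and 1911 lower (13.7%). The difference between the lines itself passed for 663 genes (4.76%), in 546 (3.92%) with a more positive log2 in the Myf5-Cre line and in 117 (0.84%) with a more negative one. This count was 0 without Myf5-Cre brown adipocyte library 1, Ucp1-iCre myoepithelial library 1, Ucp1-iCre myoepithelial library 2 or Ucp1-iCre brown adipocyte library 1, where 2783, 2008, 2149 and 2472 genes had an unadjusted edgeR p under 0.05. It was 232 without Myf5-Cre myoepithelial library 1, 2797 without Myf5-Cre myoepithelial library 2 and 1066 without Ucp1-iCre brown adipocyte library 2.

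Acta2 had a log2 of 10.80 ± 0.78 SE in the Myf5-Cre line and 6.04 ± 0.63 SE in the Ucp1-iCre line (difference 4.76 ± 0.77 SE, edgeR adjusted p 0.0233). Its myoepithelial levels were alike and its brown adipocyte levels were not. Other genes, such as Kcnk3 and Cfd, differed between the lines in both cell types. Kcnk3, a potassium channel of brown fat, had 1.08, 0.87, 8.54 and 7.71 CPM in myoepithelial libraries and 814, 1143, 70.4 and 170.0 CPM in brown adipocyte libraries, with a log2 of -9.97 in the Myf5-Cre line and -3.89 in the Ucp1-iCre line (edgeR adjusted p 0.0176). Cfd, which encodes adipsin, had 0.205, 2.38, 16.9 and 10.4 CPM in myoepithelial libraries and 9252, 4866, 924 and 2009 CPM in brown adipocyte libraries, with a log2 of -12.39 in the Myf5-Cre line and -6.75 in the Ucp1-iCre line (edgeR adjusted p 0.0468). Both genes were at their highest in Myf5-Cre brown adipocytes and at their lowest in Myf5-Cre myoepithelial cells. Gata3, a luminal factor, had 57.4, 75.2, 30.9 and 28.2 CPM in myoepithelial libraries and 0.133, 0.206, 10.3 and 7.68 CPM in brown adipocyte libraries, a difference between lines of 6.81 ± 0.70 SE (edgeR adjusted p 0.0124). Over both lines its call (log2 4.36 ± 1.35 SE, edgeR adjusted p 0.034) did not pass without either Myf5-Cre myoepithelial library, either Myf5-Cre brown adipocyte library or Ucp1-iCre brown adipocyte library 2 (edgeR adjusted p 0.0525 to 0.0951). The median log2 of endothelial genes was 4.97 in the Myf5-Cre line and 0.97 in the Ucp1-iCre line. For dissociation genes it was 2.95 and 0.49, and for contractile genes 7.23 and 3.75, in the same order. For thermogenic genes it was -7.21 and -3.72. Medians per line over all tested genes were not taken, so these values have no background. The sums of the endothelial and dissociation markers moved with these line differences, and their part in them was not tested.

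**Figure D5:**
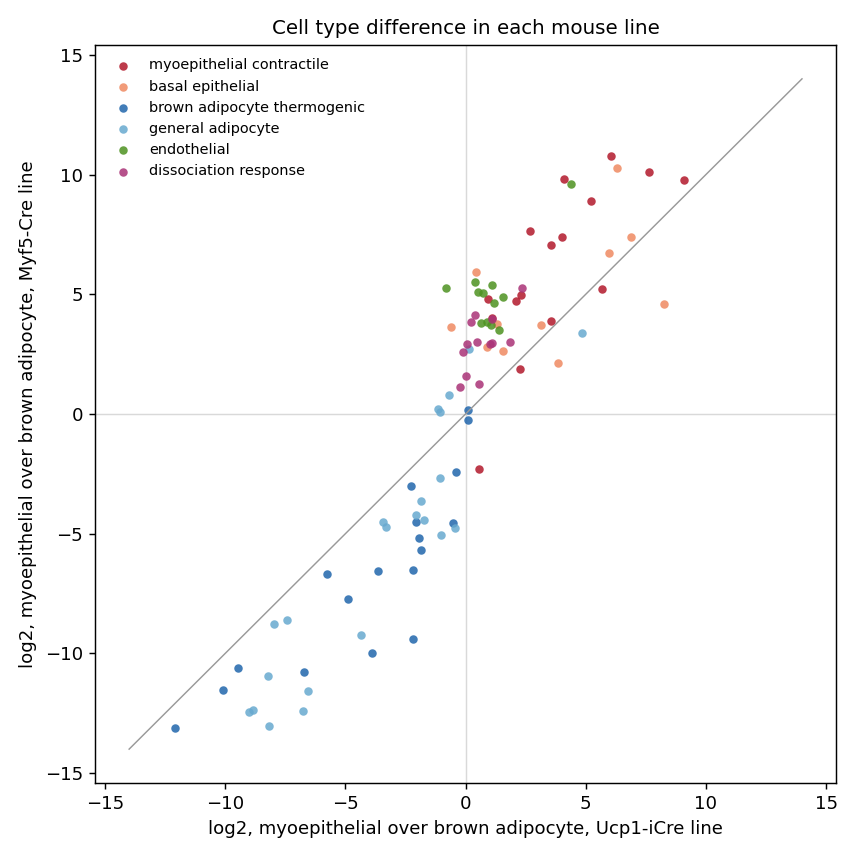
Log2 difference, myoepithelial over brown adipocyte, in the Ucp1-iCre line (horizontal axis) and in the Myf5-Cre line (vertical axis) for the genes of 6 lists that have counts in every group; each point is a gene and the grey line marks equal values. Thermogenic and adipocyte genes lie mostly below the line at the lower left, and contractile, endothelial and dissociation genes mostly above it.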

How the data were processed

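For each library the authors deposited raw counts of reads per gene, by Ensembl gene identifier. Per the labels' protocols, RNA was taken with an RNeasy Micro kit, amplified with the SMART-Seq v4 Ultra Low Input kit and sequenced on an Illumina HiSeq 2500. The submitters' processing notes name TopHat, HTSeq, DESeq2 and the build mm10; not given in the sources used here are their versions, the annotation release, whether strand was used and what became of reads matching several genes, and the last 2 bear on the genes with overlap or shared sequence named in the report.

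The 12 files were joined into 38924 genes, of which 37607 had a symbol in GENCODE M21 (mm10). Genes of the mitochondrial chromosome (37), small RNA genes (5740) and genes with over 50% of 31-base sequences shared with other genes (4184) were left out, which kept 28963. The 8 libraries entered 1 fit by edgeR 4.0.16 in R 4.3.3 (quasi-likelihood test, TMM factors, filterByExpr with a minimum count of 10, Benjamini-Hochberg adjustment over all 13931 genes tested, threshold 0.05), with cell type as the effect and mouse line as covariate; a second model with a mean per group gave the difference within each line and between lines. Standard errors are the log2 change over the square root of F. Intervals are 95%. Tables used Python 3.11.15, pandas 2.3.3 and numpy 2.4.6, figures matplotlib 3.10.9. The code was tested on simulated data. Alternatives were RLE factors, limma 3.58.1 (voom), DESeq2 1.42.0, no filter, stricter or no limits on shared sequence, milk genes left out, all 12 libraries, a replicate block, no covariate and each library left out.

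Depth was 11027738 to 31005011 counts per library, so that 3 counts, the upper limit for a count of 0, are 0.0932 to 0.400 CPM per library. Replicate numbers come from the sample titles, with no stated pairing. Members and lists were chosen with earlier results of these data known. Genes named are the driver and sort genes, members of the contractile, basal, thermogenic, adipocyte, droplet, transcription factor, somite and milk lists, the 12 most abundant per direction among called, non-overlapping genes with an absolute log2 of at least 5, the 12 most abundant with an interval within ±1, up to 4 called genes of smallest p per other list and the 5 smallest p per direction for the line difference. The most abundant genes were taken from protein-coding genes, predicted genes left out. Pecam1, Hoxa9, Fads1, Fads2 and Slc2a1 were named after their values were seen. Some genes of the lists are counted but not reported by name here. Motifs were searched in the 250 bases before the start within RefSeq promoter windows (GRCm38.p6).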

Additional observations from a re-analysis of the deposited data

Results flagged for a closer look

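Among 251 sets of 4 libraries, 22 had 1 library farther from the other 3 than Dixon's 95% limit for 4 values allows; chance flags about 1 in 20 sets. Several are single low counts in a group otherwise at 0. Among myoepithelial libraries these are Myf5 (0.0624 CPM in Ucp1-iCre library 1) and Elovl3 (0.0932 CPM in Ucp1-iCre library 2). Among brown adipocyte libraries these are Actg2 (0.533 CPM) and Wap (0.133 CPM) in Myf5-Cre library 1, Elf5 (0.103 CPM) in Myf5-Cre library 2, Krt18 (0.125 CPM) and Myocd (0.374 CPM) in Ucp1-iCre library 1 and Krt8 (0.584 CPM) in Ucp1-iCre library 2. Col17a1 stood at 1.74 CPM in Ucp1-iCre brown adipocyte library 1, well above the other 3.

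Myf5-Cre myoepithelial library 2 was the high one for Actg2 (517 CPM), Mylk (1572 CPM), Cald1 (1262 CPM), Cdh3 (116 CPM) and Tfap2c (163 CPM), genes that contractile or basal cells are known for. Myf5-Cre myoepithelial library 1 was the high one for Acadvl (113 CPM), Ebf1 (336 CPM) and Ucp1 (3.13 CPM), and for the summed thermogenic (1236 CPM), fatty acid oxidation (2198 CPM) and somite and muscle lineage (681 CPM) lists. Among brown adipocytes, the glycolysis and lactate list was low in Ucp1-iCre library 1 (9804 CPM) and the transcription factor list was low in Myf5-Cre library 1 (1052 CPM).

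Over all 13931 genes tested, the edgeR test of the interaction passed for 663 (4.76%), a count that rested on single libraries as given above. The naming rule used the p of this same test in part, so the described genes are not a sample of all genes. The difference between cell types itself differed between the mouse lines in 16 described genes by this test, with the log2 of the Myf5-Cre line minus that of the Ucp1-iCre line as the measure. It was more positive in the Myf5-Cre line for Acta2 (4.76), Cald1 (3.87), Tagln (3.69), Snai2 (5.50), Gata3 (6.81), Mef2c (5.76), Cd74 (4.51) and Hoxd9 (3.57). It was more negative for the brown fat and adipocyte genes Dio2 (-7.20), Kcnk3 (-6.08), Esrra (-4.03), Cebpa (-4.29), Cfd (-5.64) and Plin5 (-8.91), and for Des (-2.87) and Col3a1 (-4.13). Plin5 was at 0 in both Myf5-Cre myoepithelial libraries, so its value depends on the prior count and is no bound. The endothelial marker sums of the brown adipocyte libraries were higher in the Ucp1-iCre line, and their part in these differences was not tested.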

How the results depend on the processing

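No direction of a called gene described above was reversed in any alternative run. Of the 83 called genes described, all that could be tested kept their call with RLE factors, limma-voom, DESeq2, no filter, all genes kept, milk genes left out, at most 5% shared sequence and protein-coding genes only. The fit with all 12 libraries lost 3, the fit without covariate 1, the limit on opposite-strand overlap 2 of 71, and leaving out a library 0 to 7. Of the 21 tested genes that were not called, DESeq2 called 8, limma-voom 4 and the fit with 12 libraries 4.
The 5026 genes called over both lines became 2479 with an absolute log2 of at least 3 required and 3138 (29.0% of 10837 tested) when genes with over 5% opposite-strand overlap were left out, which tests fewer genes. The second of these, chosen after seeing the data, as was the protein-coding fit, left 1701 calls in the Ucp1-iCre line, against 3095. With single libraries left out, the calls ran from 3683 to 6296 over both lines, 5101 to 7649 in the Myf5-Cre line, 1000 to 4318 in the Ucp1-iCre line and 0 to 2797 for the difference between lines. In the Ucp1-iCre line they were 1000 and 1108 without its myoepithelial library 1 or 2 and 1449 without its brown adipocyte library 2. Leaving 1 sample in an arm assumes that it varies like the others. Milk genes left out gave 2416 higher and 2663 lower genes, and DESeq2 3670 and 3250, against 2251 and 2775, so the split between higher and lower depends on the scaling and tool.
The replicate number did not pair the libraries, since deviations of same-numbered libraries correlated at r = 0.0272 (Myf5-Cre) and 0.0206 (Ucp1-iCre). With the replicate block, 3505 genes were called over both lines (1386 higher, 2119 lower), 6337 in the Myf5-Cre line, 2436 in the Ucp1-iCre line and 324 for the difference between lines, against 663, and 6 of the 83 called genes described lost their call. Depth limits genes under about 1 CPM in the brown adipocyte libraries.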
